A study of Mus musculus with 23 samples.

Results

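Schwann cells (SCs) and macrophages sorted from the same kind of nerve, that of 1-month-old Nf1fl/fl;DhhCre mice, were compared gene by gene. The members are the 8 arrays of mutant nerve in the 1-month set, 3 of SCs (replicates 8, 9 and 10) and 5 of macrophages (replicates 11 to 15), out of 23 arrays in the series. All 22180 genes that 1 transcript cluster of the array could be assigned to were tested. The mice carry 2 floxed Nf1 alleles and a Cre driven by the desert hedgehog (Dhh) promoter, so Nf1 is lost in the SC lineage and not in macrophages, and p75+ SCs of such a nerve are a mixture of recombined and unrecombined cells. The labels give a mixed C57BL/6 and BALB/c background, whereas the study's methods name C57BL/6 alone. The labels name the tissue neurofibroma at this age, although the study's text places tumour formation later, and it is called mutant nerve here. Dorsal root ganglia, nerve roots, brachial plexus and sciatic nerve of several mice were pooled for a sample, digested with collagenase and dispase, and sorted for p75+ SCs or for macrophages positive for CD11b and for the macrophage antigen that Adgre1 encodes. Wild-type nerve at 1 month (3 SC and 3 macrophage arrays) and neurofibroma of Nf1fl/fl;DhhCre mice at 7 months (3 SC and 4 macrophage arrays) were used only to ask whether the same contrast differed there. The study's text gives the wild-type mice as Nf1fl/fl, with the floxed alleles and without the Cre. The study's text describes fewer sorts of 1-month nerve than there are macrophage arrays of mutant nerve, and the labels do not say which arrays share a sort, so the p-values measure the spread between these arrays, which may in part be technical.

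SCs wrap peripheral axons and derive from the neural crest. Their lineage is set by SOX10 and other transcription factors, and those that myelinate switch on a lipid-making and myelin-protein programme. Nerve macrophages are of haematopoietic origin, depend on signals through the CSF1 receptor, and are specified by the ETS factor PU.1. Neurofibromin, the product of Nf1, is a GTPase-activating protein that turns Ras off, so that cells without it hold Ras and the ERK cascade active for longer. In neurofibromas the Nf1-deficient SCs and the macrophages lie side by side, and ligands made by one cell type can be read by receptors on the other.

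The values are deposited log2 intensities, on which 1 unit is a 2-fold difference. A gene was called where limma's moderated test gave a Benjamini-Hochberg adjusted p under 0.05 over all 22180 genes and the fold was above 2. Differences are given as SC minus macrophage, with their standard error (SE). The array medians of the 8 arrays lay between 3.74 and 3.84, and the number of arrays, not a read depth, limits the precision. The first principal component held 70.2% of the variance over the 8 arrays and placed SCs at 73.7 to 84.8 and macrophages at -63.0 to -34.4, with macrophages 14 and 15 nearest to the SCs. Arrays correlated at a mean r of 0.970 among SCs and 0.976 among macrophages, and at 0.886 between the cell types. The labels also give a batch. SC 10 and all 5 macrophage arrays are in batch 1 and the other SCs, 8 and 9, in batch 2, so that the contrast with a batch term rests on SC 10 alone.

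The targeted gene gives no check of the SC labels, since the signal of a transcript cluster need not fall with a deleted part of a gene. Nf1 (chr11:79339590-79581609, GRCm38) stood at 6.75, 7.01 and 6.94 in SCs 8, 9 and 10, against 6.92, 7.07, 6.76, 6.64 and 6.84 in macrophages 11 to 15. The values overlapped and the difference was 0.06 ± 0.14 (SE, adjusted p = 0.83). The genes of the sort antigens describe the gates and are no result. Adgre1 was at 2.61 to 3.34 in SCs and 9.84 to 10.26 in macrophages. Itgam, which encodes CD11b, was at 3.19 to 3.39 in SCs and 6.92 to 7.93 in macrophages. Ngfr, which encodes p75, was at 5.0, 5.77 and 5.11 in SCs and 3.85 to 4.81 in macrophages, a gap of 0.94 that stayed below the 2-fold limit.

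Marker lists showed how far each sort held its labelled cell. Of 27 SC lineage markers measured, 22 were higher in SCs and none in macrophages, and of 29 macrophage markers none were higher in SCs and 27 in macrophages. The macrophage list includes the sort genes Adgre1 and Itgam, whose calls describe the gate. The SC list includes the sort gene Ngfr, which was not called. The mean of the macrophage markers was 4.09, 4.68 and 4.47 in SCs 8, 9 and 10 and 9.15 to 9.35 in macrophages. The mean of the SC markers was 8.01, 7.31 and 7.39 in SCs and ran between 5.05 in macrophage 13 and 6.17 in macrophage 14. Genes of several, not all, other cell types stood with the SC arrays. The samples held dorsal root ganglia, and 2 lists were of ganglion cells. Of 18 sensory neuron genes 6 were higher in SCs (list mean 4.44 to 5.41 in SCs, 3.52 to 4.47 in macrophages). Of 11 satellite glia genes 5 were (7.33 to 8.00, against 6.01 to 6.71). Neither list had a gene called higher in macrophages. The satellite glia list shares Fabp7, Gfap and Ednrb with the SC markers and Hmgcs1 with the cholesterol synthesis enzymes, so its count is not separate from theirs. Of 23 fibroblast and perineurial genes 18 were higher in SCs (list mean 7.44 to 7.70 in SCs, 4.70 to 6.27 in macrophages), of 18 endothelial genes 10 (5.38 to 6.47, against 3.76 to 5.13), and of 14 pericyte and smooth muscle genes 12 (6.21 to 6.88, against 4.07 to 5.02). With the label batch as a term in the fit, 11 fibroblast, 1 endothelial and 9 pericyte genes were called higher in SCs. SC 9 had the highest endothelial mean and also the highest mean of lymphocyte genes (3.07 to 4.21 over the SCs, 3.63 to 3.8 in macrophages), of which Cd3d stood at 6.06 and Cd79b at 6.12 in that array. Of the 17 lymphocyte genes none was called higher in SCs and 2 were in macrophages, and the study's text says that T cells were kept out of the SC sort by light scatter and the level of p75. Of 20 mast cell and neutrophil genes 3 were higher in SCs and 4 in macrophages, at a list median of -0.20. Among the 3, the mast cell protease Mcpt4 was at 1.74 in SC 8 but 7.58 in SC 9 and 7.67 in SC 10, against 1.72 to 2.36 in macrophages. Its call (3.64 ± 1.10, adjusted p = 0.036) was lost on leaving out each array other than SC 8, with 2.63 without SC 10 and 2.68 without SC 9, and the difference was 5.60 without SC 8. In such bulk samples more cells of a type and more RNA per cell cannot be told apart, and the part of these other cells in the results was not tested.

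**Figure D1:**
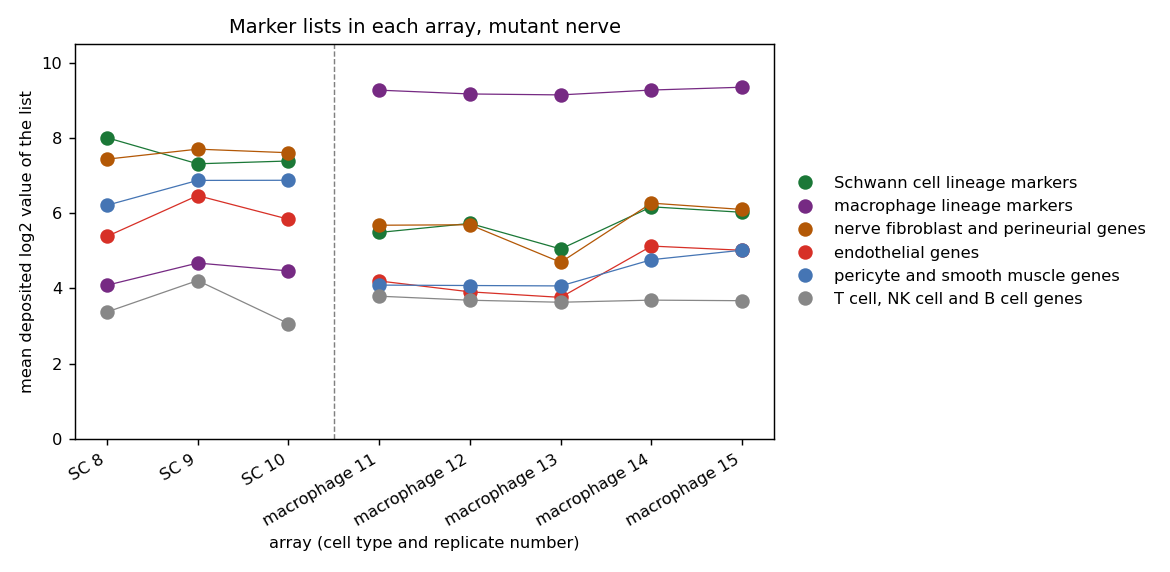
Mean deposited log2 value (y axis) of 6 marker lists in each of the 8 arrays of mutant nerve (x axis), SCs on the left and macrophages on the right, with 1 point per list and array and thin lines joining the arrays of a cell type. The macrophage markers lie at 4.09 to 4.68 in SCs and 9.15 to 9.35 in macrophages, and the SC, fibroblast, endothelial and pericyte lists reach higher in macrophages 14 and 15 than in macrophage 13.

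Between SCs and macrophages of mutant nerve 2823 genes were called, 12.7% of those tested. SCs were higher for 1571 (7.08%) and macrophages for 1252 (5.64%). The 3 SC arrays did not overlap the 5 macrophage arrays for 1500 of the SC-higher and 1224 of the macrophage-higher genes, where 27.5% of all genes did not overlap. The median fold was 3.04 for SC-higher and 3.09 for macrophage-higher genes, and the extremes were less alike. The largest SC-higher fold was 17.3, with 106 genes over 8-fold and none over 32-fold, whereas the largest macrophage-higher fold was 284, with 221 genes over 8-fold and 65 over 32-fold. The SC-higher genes had a median level of 6.35 in SCs and 4.54 in macrophages, and the macrophage-higher genes 5.14 in SCs and 7.31 in macrophages. The macrophage arrays differed among themselves in the SC-higher genes. Their median level was 4.39, 4.45 and 4.12 in macrophages 11 to 13 and 4.96 and 4.89 in macrophages 14 and 15. Without these 2 arrays 1756 genes were higher in SCs and 1297 in macrophages. Within label batch 1, where SC 10 stands against the 5 macrophages, the counts were 1326 and 1079, and with the batch as a term over all 8 arrays 1284 and 1052, of which 992 and 971 were among those called without it. Of 186 called genes named here 156 kept their call with the batch term, and each of the 186 kept its direction in this and the other settings tried. Those that lost the call are given with the batch-term difference and its adjusted p where they are described. The other settings tried for named genes were quantile normalization, the mean of a gene's clusters, 14 one-month arrays with the batch, and arrays left out.

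**Figure D2:**
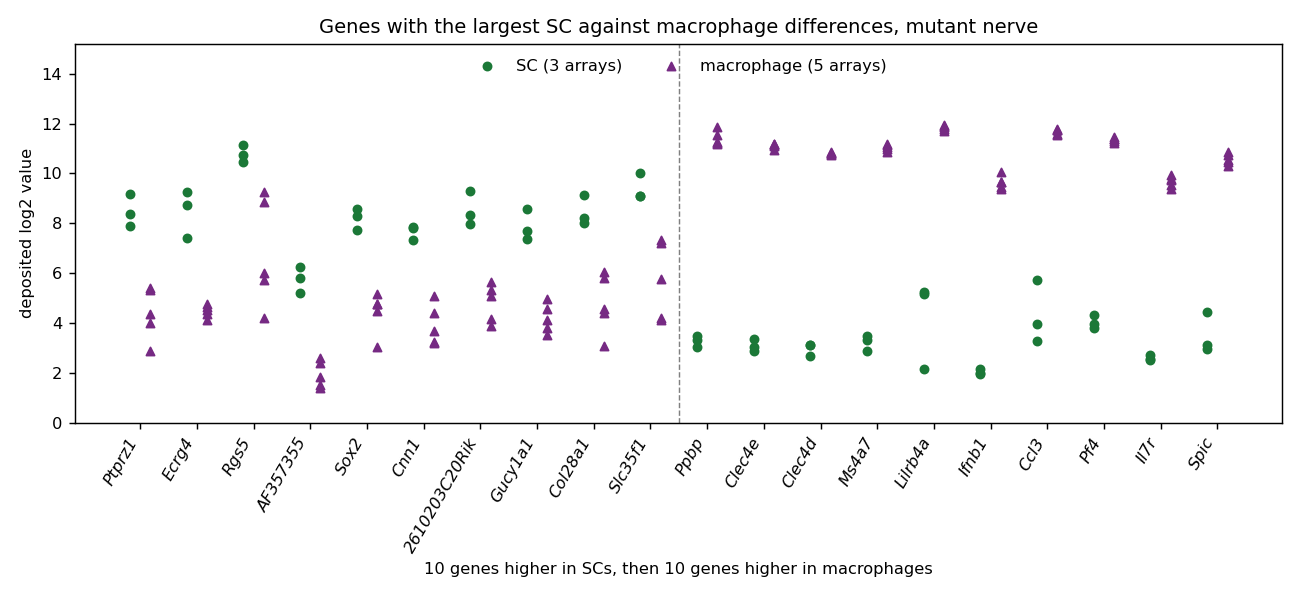
Deposited log2 values (y axis) of the 10 genes with the largest difference in each direction among called genes that did not overlap (x axis), with a circle for each of 3 SC arrays and a triangle for each of 5 macrophage arrays. The macrophage-higher genes differ by 7.07 to 8.15 and the SC-higher genes by 3.68 to 4.11.

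The genes furthest above SCs in macrophages encode secreted chemokines, C-type lectins and myeloid regulators. Ppbp, a platelet and myeloid chemokine, was at 3.33, 3.48 and 3.03 in SCs and at 11.87, 11.56, 11.19, 11.28 and 11.24 in macrophages, a difference of -8.15 ± 0.19 (284-fold, adjusted p = 1.2e-09). Pf4, its neighbour on chromosome 5 (Ppbp chr5:90768518-90770063, Pf4 chr5:90772435-90773383), was at 3.79, 4.33 and 3.94 in SCs and 11.23 to 11.46 in macrophages (-7.33 ± 0.15). Both genes were chosen among those without overlap between the cell types, so that its absence is no result. The SC values of both were spread over less than 1 unit. Clec4e, the receptor Mincle for mycobacterial and damage-derived glycolipids, was at 2.85 to 3.37 in SCs and 10.93 to 11.20 in macrophages (-8.03 ± 0.15, 261-fold). Its partner lectin Clec4d, which lies next to it on chromosome 6 (chr6:123262107-123275268, before Clec4e at chr6:123281789-123289871), was at 2.68 to 3.13 in SCs and 10.75 to 10.87 in macrophages (-7.84 ± 0.14). Ms4a7, a tetraspan membrane protein of macrophages, stood apart by 7.83, the inhibitory receptor Lilrb4a by 7.67, the chemokine Ccl3 by 7.35, the interleukin 7 receptor chain Il7r by 7.10 and Spic, the ETS factor of iron-recycling macrophages, by 7.07, all higher in macrophages. Lilrb4a has a close paralog whose transcripts the probes may share, so its level is uncertain. Ifnb1, which encodes interferon beta, was at 1.96, 2.15 and 1.98 in SCs and 10.06, 9.67, 9.37, 9.67 and 9.44 in macrophages (-7.61 ± 0.17, adjusted p = 1.2e-09).

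The genes furthest above macrophages in SCs included a glial receptor and a factor of immature SCs, but also genes of mural cells. Ptprz1, a receptor tyrosine phosphatase of glia, was at 9.19, 7.91 and 8.39 in SCs and at 4.35, 3.99, 2.85, 5.40 and 5.33 in macrophages (4.11 ± 0.53, 17.3-fold, adjusted p = 3.0e-04). Sox2, a factor of immature and repair SCs, was at 8.58, 7.75 and 8.27 in SCs and at 4.49, 4.76, 3.02, 4.77 and 5.15 in macrophages (3.76 ± 0.42). Absence of overlap was again a condition of the choice. The lowest macrophage value was that of macrophage 13 in both genes. Ecrg4, a secreted peptide precursor, differed by 3.99 ± 0.34, the guanylate cyclase subunit Gucy1a1 by 3.69 ± 0.35, the collagen Col28a1 by 3.68 ± 0.59 and the transporter-like Slc35f1 by 3.68 ± 0.73, all higher in SCs. The transcript AF357355 (3.81) and the transcript 2610203C20Rik (3.71) were also among these 10. Cnn1, a calponin of smooth muscle, was at 7.32, 7.81 and 7.85 in SCs and 3.18 to 5.08 in macrophages (3.74 ± 0.40). Rgs5, a regulator of G-protein signalling typical of pericytes, was at 10.46, 11.13 and 10.75 in SCs and at 5.99, 4.20, 5.74, 8.85 and 9.25 in macrophages (3.97 ± 1.00, adjusted p = 0.014). Macrophages 14 and 15 were the high ones, and the call was lost without SC 9 (3.8, adjusted p = 0.053). With the batch term the calls of Rgs5 (3.94, adjusted p = 0.16) and Slc35f1 (3.36, adjusted p = 0.10) were lost.

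Promoter windows of 300 bases, from 250 before to 50 after the start of each gene, were read from RefSeq (GRCm38.p6) for 16990 of the tested genes and searched on both strands. A PU.1-type motif, GAGGAAG, was found in 21.6% of the windows of macrophage-higher genes (217 of 1006 genes with a window), in 16.3% of SC-higher genes and in 14.9% of all genes. A SOX-type motif, AACAAAG or AACAATG, was found in 7.87% of SC-higher genes (91 of 1156), in 7.26% of macrophage-higher genes and in 9.28% of all. A match is a description of the letters and not a site. The windows printed here belong to genes with large differences in the contrast, with Clec4a1, another C-type lectin of the chromosome 6 group, at a difference of -6.75 ± 0.14. Capitals mark only the motif that a window is labelled with, and the PU.1-type motif reads CTTCCTC where it lies on the other strand. Matches to the other motif are left in small letters. The Clec4d window, for example, also holds SOX-type matches on the other strand.
Clec4d (macrophage-higher, PU.1-type, chr6:123261857-123262156, + strand): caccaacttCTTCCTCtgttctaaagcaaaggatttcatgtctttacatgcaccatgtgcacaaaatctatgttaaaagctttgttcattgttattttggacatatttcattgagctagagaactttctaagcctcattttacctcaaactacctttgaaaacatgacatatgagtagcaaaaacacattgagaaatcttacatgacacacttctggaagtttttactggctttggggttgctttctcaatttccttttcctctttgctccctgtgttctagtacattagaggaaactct
Pf4 (macrophage-higher, PU.1-type, chr5:90772185-90772484, + strand): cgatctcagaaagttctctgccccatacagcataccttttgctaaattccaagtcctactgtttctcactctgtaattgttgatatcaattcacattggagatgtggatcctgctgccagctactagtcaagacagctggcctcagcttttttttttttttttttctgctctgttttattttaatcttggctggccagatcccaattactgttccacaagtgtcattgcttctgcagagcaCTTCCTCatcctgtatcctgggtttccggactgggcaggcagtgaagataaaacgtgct
Clec4a1 (macrophage-higher, PU.1-type, chr6:122921598-122921897, + strand): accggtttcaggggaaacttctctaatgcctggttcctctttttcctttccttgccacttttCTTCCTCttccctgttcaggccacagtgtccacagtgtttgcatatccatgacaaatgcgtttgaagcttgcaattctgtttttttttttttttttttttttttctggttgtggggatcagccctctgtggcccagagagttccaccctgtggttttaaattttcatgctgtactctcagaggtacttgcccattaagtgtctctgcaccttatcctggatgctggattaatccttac
Retnla (macrophage-higher, PU.1-type, chr16:48842359-48842658, + strand): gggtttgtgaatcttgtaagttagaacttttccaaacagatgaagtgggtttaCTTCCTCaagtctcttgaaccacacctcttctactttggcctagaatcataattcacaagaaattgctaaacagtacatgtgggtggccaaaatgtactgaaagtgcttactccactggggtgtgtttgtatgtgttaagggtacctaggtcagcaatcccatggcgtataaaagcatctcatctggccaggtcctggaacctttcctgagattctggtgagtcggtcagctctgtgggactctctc
Cnn1 (SC-higher, SOX-type, chr9:22099003-22099302, + strand): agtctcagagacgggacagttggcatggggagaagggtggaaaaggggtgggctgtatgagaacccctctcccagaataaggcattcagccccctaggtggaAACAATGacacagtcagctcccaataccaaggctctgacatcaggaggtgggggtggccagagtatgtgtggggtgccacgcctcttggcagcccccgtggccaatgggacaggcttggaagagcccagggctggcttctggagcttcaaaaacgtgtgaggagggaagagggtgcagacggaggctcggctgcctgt
Col28a1 (SC-higher, SOX-type, chr6:8192568-8192867, - strand): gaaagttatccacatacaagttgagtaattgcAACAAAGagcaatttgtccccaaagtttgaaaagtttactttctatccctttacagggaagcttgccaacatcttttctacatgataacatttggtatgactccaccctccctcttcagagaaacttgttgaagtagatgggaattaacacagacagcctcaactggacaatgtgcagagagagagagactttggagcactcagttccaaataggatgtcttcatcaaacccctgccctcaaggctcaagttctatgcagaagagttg

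The median difference of the 29 macrophage markers was -4.96, where that of all genes was -0.00256. Besides Ms4a7, the scavenger receptor Msr1 was at 2.88, 3.39 and 3.18 in SCs and 9.53 to 10.09 in macrophages (-6.67 ± 0.18), and Csf1r, the receptor for CSF1 and IL-34, at 4.10, 3.8 and 4.53 in SCs and 9.11 to 9.26 in macrophages (-5.04 ± 0.17, 32.9-fold, adjusted p = 1.8e-08). The exceptions among the markers were the fractalkine receptor Cx3cr1 (-0.74) and the efferocytosis receptor Mertk (0.33), neither of which was called. Of 18 myeloid transcription factors 3 were higher in SCs and 9 in macrophages. Tfec (-4.58), Spi1, which encodes PU.1 (-4.46 ± 0.20), Irf8 (-2.75) and Mitf (-2.37) were higher in macrophages, and Id3 (1.60), Klf4 (1.34) and Cebpd (1.34) in SCs. Of 21 genes known from resident macrophages 13 were higher in macrophages. Retnla, a secreted product of alternatively activated macrophages, was at 3.39, 3.35 and 2.98 in SCs and at 10.64, 9.65, 9.71, 10.24 and 9.10 in macrophages, and the mannose receptor Mrc1 differed by -6.01 ± 0.15. Lyve1 (-0.36) and Vsig4 (-0.93), also resident macrophage genes, were not called. Of 17 monocyte and dendritic cell genes 2 were higher in SCs (1 with the batch term), Nr4a1 (2.50) and Ace (1.59, and 1.02 with adjusted p = 0.26 under the batch term), and 5 in macrophages (2 with the batch term), among them Ccr2 (-3.47) and Chil3 (-3.64).

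Called receptors that sense microbes and immune complexes were all higher in macrophages. Of 22 Toll-like receptors and adaptors 16 were, at a list median of -2.83, and none was higher in SCs. Tlr13, a sensor of bacterial ribosomal RNA, was at 2.69, 2.49 and 2.14 in SCs and 8.46 to 9.05 in macrophages (-6.27 ± 0.18), Tlr1 differed by -5.23, Tlr7 by -5.17 and the related Cd180 by -4.90. Tlr3, the sensor of double-stranded RNA, did not separate the cell types (0.10). Of 18 inflammasome genes 9 were higher in macrophages, with Nlrp3 at 2.64 to 2.91 in SCs and 7.22 to 7.88 in macrophages (-4.70 ± 0.17) and Casp1 at -2.98, while the adaptor Pycard differed by -0.54 and was not called. Of 10 Fc receptors 5 were higher in macrophages, led by the shared signalling chain Fcer1g (-6.27 ± 0.27) and Fcgr1 (-5.24). The inhibitory Fcgr2b (-0.69) was not called.

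Complement genes were called in both directions. Those higher in macrophages included receptors and the initiating C1q chains, with C3ar1 at 3.36 to 3.92 in SCs and 10.24 to 10.54 in macrophages (-6.83 ± 0.16), C5ar1 at -5.79, C1qb at -6.59 ± 0.16, C1qc at -4.72 and C1qa at -4.61. The 4 higher in SCs were regulators and a protease. Serping1, the C1 inhibitor, was at 10.04, 10.44 and 10.01 in SCs and at 6.79, 6.92, 4.44, 8.33 and 8.08 in macrophages (3.25 ± 0.71, adjusted p = 0.007), the C1 protease C1s1 differed by 2.95 ± 0.42, and the membrane inhibitors Cd59a and Cd55 by 3.32 ± 0.79 and 2.14 ± 0.43. With the batch term Serping1 (3.10, adjusted p = 0.12) and Cd59a (2.92, adjusted p = 0.19) were not called. In all, 4 of 23 complement genes were higher in SCs and 9 in macrophages (2 and 8 with the batch term), at a list median of -0.45. The macrophage calls of this list include the sort gene Itgam. The terminal pathway regulator Clu differed by 2.49 and was not called.

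Antigen presentation leaned to macrophages in both classes but by different amounts. Of 13 MHC class II genes 7 were higher in macrophages (median -1.75). H2-Ab1 was at 5.29, 7.09 and 6.82 in SCs and at 10.63 to 11.16 in macrophages (-4.53 ± 0.34), and the cathepsin Ctss, which cleaves the invariant chain, at 4.30, 6.24 and 4.09 in SCs and 10.80 to 10.96 in macrophages (-5.97 ± 0.40). Of 13 class I genes 4 were higher in macrophages (median -0.83), among them the transactivator Nlrc5 (-1.56) and the transporter subunit Tap1 (-1.23), whereas H2-K1 (-0.83) and B2m (-0.33) were not called. Of 21 costimulatory and checkpoint molecules 2 were higher in SCs and 10 in macrophages. The T cell ligand Cd86 was at 3.49 to 4.71 in SCs and 9.62 to 9.71 in macrophages (-5.44 ± 0.23), and the checkpoint ligand Cd274, known as PD-L1, differed by -3.16 ± 0.32.

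Interferon-induced genes and most called cytokines were higher in macrophages. Of 29 genes known to be induced by type I interferon none were higher in SCs and 24 in macrophages (median -1.87). Oasl1 was at 4.4, 6.37 and 4.61 in SCs and at 9.68, 9.03, 8.72, 9.10 and 9.32 in macrophages (-4.04 ± 0.40), Rsad2 differed by -3.71 ± 0.42, Cmpk2 by -3.70 and Usp18 by -3.28. SC 9 was the highest SC array in these 4 genes. Of 23 interleukin 1 and TNF family genes 3 were higher in SCs and 8 in macrophages. Il1b was at 4.26, 4.92 and 4.54 in SCs and at 10.24, 10.17 and 10.11 in macrophages 11 to 13, with the other two higher and the largest 11.09 (-5.95 ± 0.27), Il1a differed by -5.29, Tnf by -5.0 ± 0.28 and the receptor antagonist Il1rn by -5.76. The signalling receptor for interleukin 1, Il1r1, went the other way, at 8.42, 9.33 and 8.65 in SCs and 6.51 to 7.02 in macrophages (2.00 ± 0.21). Tnfrsf12a, the receptor for TWEAK, was also higher in SCs (1.3 ± 0.15). The study's text does not exclude that processing for the sort changed expression in macrophages. Its effect on cytokine genes such as Il1b, Tnf and Ifnb1 was not tested.

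Of 33 chemokine ligands 3 were higher in SCs and 15 in macrophages. After Ppbp, Ccl3 and Pf4, the monocyte attractant Ccl12 was at 2.18, 3.01 and 3.77 in SCs and 9.5 to 10.04 in macrophages (-6.71 ± 0.30), Ccl4 differed by -6.12, Ccl22 by -4.92 and Ccl6 by -4.50. Cxcl14, an epithelial and stromal chemokine, was at 9.00, 9.03 and 8.92 in SCs and 6.13 to 7.36 in macrophages (2.13 ± 0.25). Ccl2, the main monocyte attractant, was at 11.88, 11.74 and 11.57 in SCs and 11.31 to 11.70 in macrophages, a difference of 0.14 that was not called and -0.02 with the batch term. It was thus high in both cell types, with overlapping values. Of 22 chemokine receptors 2 were higher in SCs, of which the scavenging receptor Ackr3 differed by 1.85 ± 0.21, and 7 in macrophages, led by Ccr1 (-4.73 ± 0.21).

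Called genes of the phagocyte oxidase, lysosome and scavenger list were all higher in macrophages, whereas those of apoptotic-cell uptake were called in both directions. Of 30 phagocyte oxidase, lysosome and scavenger genes none were higher in SCs and 24 in macrophages (median -2.60). Lyz2, the lysozyme of myeloid cells, was at 4.17, 5.33 and 5.80 in SCs and 11.23 to 11.41 in macrophages (-6.24 ± 0.29), the fatty acid and apoptotic-cell receptor Cd36 differed by -5.82 ± 0.46, and the oxidase subunit Cybb by -6.08 ± 0.50. General lysosomal proteins such as Lamp1 (-0.58) and Scarb2 (0.45) were not called. Of 20 genes of apoptotic-cell uptake 4 were higher in SCs and 5 in macrophages (2 and 5 with the batch term, median 0.32), with Itgb3 (2.01), Dock1 (1.83) and Megf10 (1.39) in SCs and Timd4 (-4.63) and Stab1 (-3.67) in macrophages, while the TAM receptors Axl (-0.50), Tyro3 (0.63) and Mertk (0.33) were not called. The leukotriene-activating protein Alox5ap (-5.08 ± 0.23) and the prostaglandin D synthase Hpgds (-4.60 ± 0.19) were higher in macrophages, against the other prostaglandin D synthase, Ptgds (1.84 ± 0.35), and the prostacyclin synthase Ptgis (1.5) in SCs. Of 19 purinergic genes 2 were higher in SCs and 4 in macrophages (median 0.04). The receptors P2ry6 (-4.26), P2rx4 (-3.15) and P2rx7 (-3.09), which sense extracellular nucleotides, were higher in macrophages. The batch term removed the calls of Megf10 (1.2, adjusted p = 0.092) and Ptgds (1.21, adjusted p = 0.16).

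**Figure D3:**
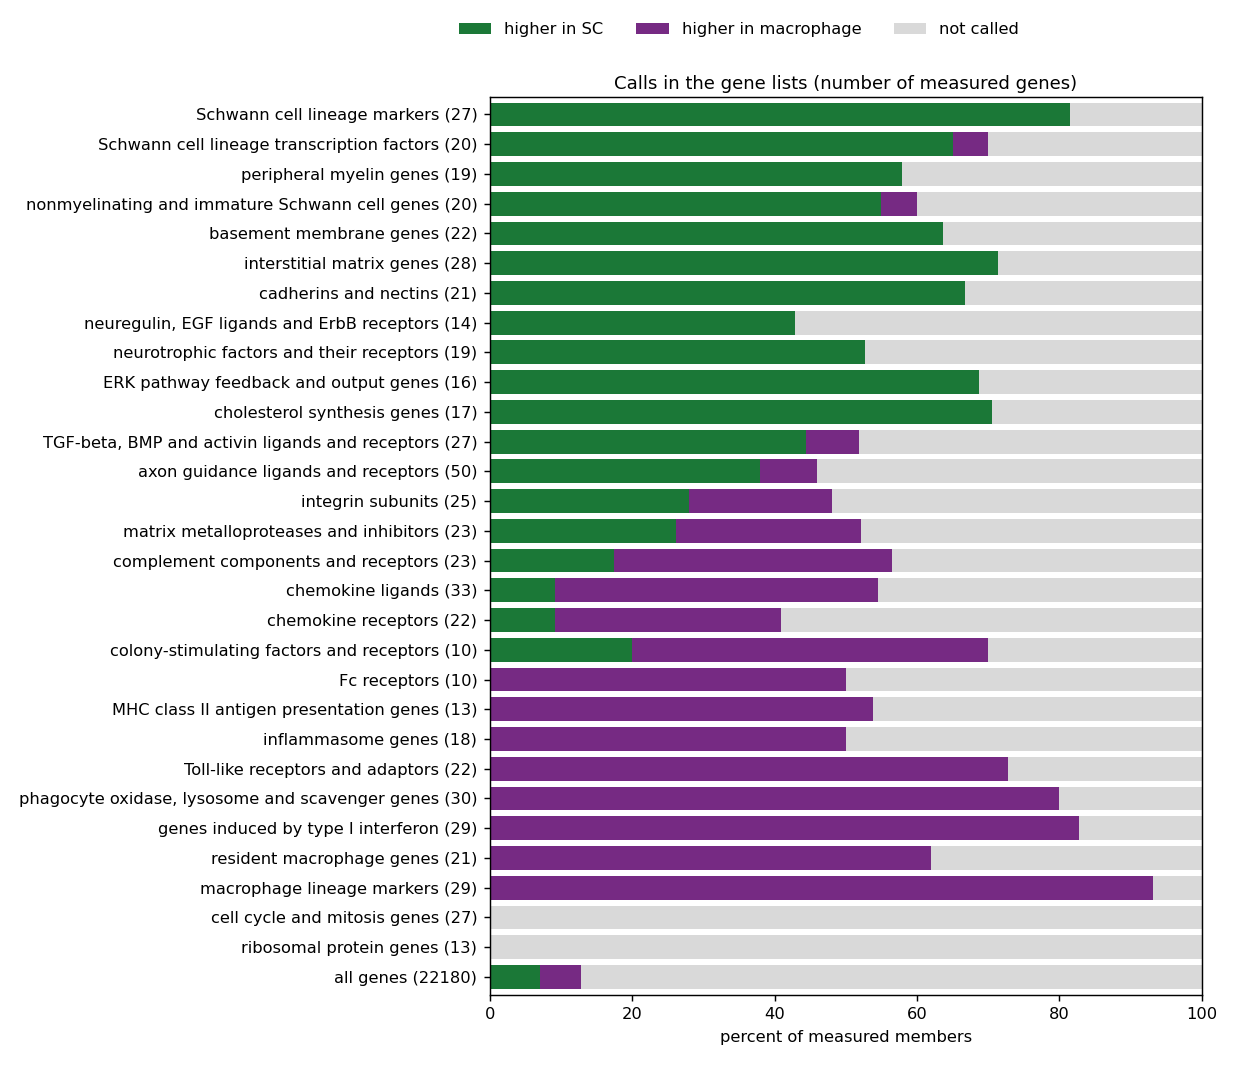
Share of the measured members of 29 gene lists and of all genes (rows, number of measured genes in brackets) that were called higher in SCs, called higher in macrophages or not called (x axis, percent). All Toll-like receptor, Fc receptor and lysosome calls lie on the macrophage side and all matrix, cadherin and cholesterol synthesis calls on the SC side, where 7.08% and 5.64% of all genes were called higher in SCs and in macrophages.

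Called SC lineage markers and myelin genes were all higher in SCs. The 27 lineage markers had a median difference of 2.00. Ncam1, a neural adhesion molecule, was at 9.55, 8.37 and 8.73 in SCs and at 4.85, 5.59, 3.54, 6.30 and 6.16 in macrophages (3.59 ± 0.56), Cdh19, a cadherin of the SC lineage, at 8.05, 7.10 and 7.23 in SCs and 2.78 to 5.26 in macrophages (3.21 ± 0.51), and S100b at 10.41, 9.67 and 10.03 in SCs and 7.02 to 8.64 in macrophages (2.34 ± 0.33). None of the 3 overlapped, and the macrophage values of Cdh19 and S100b were highest in macrophage 15 and in macrophage 14. Of 20 SC transcription factors 13 were higher in SCs, among them Egr1 (2.79 ± 0.33), Nr2f2 (2.78 ± 0.36), Tfap2a (2.56), Sox10 (1.53) and Jun, the driver of the repair state (1.52), and 1, the inhibitor Id2, in macrophages (-2.11 ± 0.24). Egr2, the master factor of myelination, differed by 0.83 and was not called. Of 19 peripheral myelin genes 11 were higher in SCs, with Cadm4, an adhesion protein of the internode (2.18 ± 0.26), and Mal (2.17 ± 0.39) furthest apart after Plekhb1 (2.31 ± 0.29), but Pmp22 (0.08) and Mag (0.76) were not called. According to the study's text, sorting on p75 was meant to leave out myelinating SCs, which lack p75. It says that the Mbp and Mag seen may be low levels in tumour cells, rare myelinating cells or both. Of 20 genes of non-myelinating and immature SCs 11 were higher in SCs, among them Chl1 (3.27 ± 0.55), Cdh2 (2.59) and Gap43 (2.40), and 1 was higher in macrophages. With the batch term 14 SC markers, 10 SC transcription factors and 3 myelin genes were called higher in SCs, and 27 macrophage markers in macrophages. Among those lost were Sox10 (1.24, adjusted p = 0.084) and Mal (2.09, adjusted p = 0.057).

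Matrix genes, cadherins and nectins were called in these lists higher in SCs and never in macrophages. Of 28 interstitial matrix genes 20 were higher in SCs and none in macrophages (median 1.88, 10 of them with the batch term), and of 22 basement membrane genes 14 and none (median 1.39). Nid1, which links laminin to collagen IV, was at 10.06, 10.22 and 10.12 in SCs and at 6.73, 6.79, 4.52, 7.77 and 7.85 in macrophages (3.40 ± 0.62), and the laminin chains Lama4, Lama2 and Lamb1 differed by 3.32, 2.95 and 2.93. Col28a1, a collagen of the peripheral nerve, Postn (3.61 ± 0.72), Bgn (3.57 ± 0.63) and Col12a1 (3.56 ± 0.36) led the interstitial genes. In Nid1 and Postn macrophage 13 was the lowest macrophage and macrophages 14 and 15 were the highest. The fibroblast and perineurial list lay on the same side, with Mfap5 at 10.05, 10.45 and 10.31 in SCs and 5.50 to 8.41 in macrophages (3.21 ± 0.51) and Pdgfra at 6.09, 6.87 and 7.5 in SCs and 3.13 to 4.59 in macrophages (2.84 ± 0.35). Of 21 cadherins and nectins 14 were higher in SCs (median 1.63), among them Cdh11 (3.00) and Cdh1 (2.78). With the batch term Nid1 (3.39, adjusted p = 0.056), Postn (3.53, adjusted p = 0.081) and Bgn (3.31, adjusted p = 0.064) missed the threshold.

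Proteases and integrins split between the cell types. Of 23 metalloproteases and inhibitors 6 were higher in each. SCs held the aggrecanases Adamts5 (3.64 ± 0.62) and Adamts1 (3.12 ± 0.50), the inhibitor Timp3 (3.27 ± 0.67) and the gelatinase Mmp2 (3.03 ± 0.72). Macrophages held the collagenase Mmp13, at 3.36, 4.91 and 2.94 in SCs and 7.59 to 9.27 in macrophages (-4.83 ± 0.48), the elastase Mmp12 (-3.75 ± 0.32) and Adam8 (-3.40). Of 25 integrin subunits 7 were higher in SCs, led by the TGF-beta-activating Itgb8 (2.78 ± 0.43), and 5 in macrophages, led by the leukocyte chain Itgb2 (-4.93 ± 0.19). The macrophage calls among the integrins include the sort gene Itgam (-4.22). The widely used Itgb1 (0.45) was not called. Mmp2 (2.69, adjusted p = 0.18) and Timp3 (3.18, adjusted p = 0.091) lost their calls with the batch term.

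Genes that turn Ras off and genes that respond to ERK were examined because the mutated gene is one of the first kind. Of 11 Ras GTPase-activating proteins and Spred partners 1 was called in each direction, Spred2 in SCs (1.28 ± 0.31) and Rasa4 in macrophages (-2.22 ± 0.21), and the list median was 0.06. Of 16 feedback and output genes of ERK 11 were higher in SCs and none in macrophages (median 1.26, 5 with the batch term). Spry4, a feedback inhibitor, was at 6.39, 6.41 and 6.38 in SCs and at 4.14, 4.15, 3.99, 4.39 and 4.62 in macrophages (2.14 ± 0.16, adjusted p = 6.4e-06), Spry2 differed by 2.76 ± 0.47, Myc by 1.81 ± 0.22 and the ERK phosphatase Dusp6 by 1.72. Both cell types were taken from the same mutant nerve, and whether the SC level of these genes depends on Nf1 cannot be read from this contrast. In wild-type nerve the median of the ERK list was 1.40. No gene, in this list or outside it, was called for a difference between the 2 contrasts. Immediate early genes, which tissue digestion is known to raise, were higher in SCs of mutant nerve too, 13 of 26 and none in macrophages (median 1.03, 7 with the batch term), with Nr4a1 (2.50), Egr3 (2.38) and Fosb (2.02) furthest apart after Egr1. Dusp6 (1.55, adjusted p = 0.09), Spred2 (1.45, adjusted p = 0.085) and Fosb (2.38, adjusted p = 0.052) were not called with the batch term.

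Called growth factor genes were mostly higher in SCs. Of 14 neuregulins, EGF ligands and ErbB receptors 6 were higher in SCs, with the receptors Erbb2 (2.13 ± 0.31), Egfr (2.08 ± 0.29) and Erbb3 (2.02) and the ligands Btc (2.15 ± 0.27) and Hbegf (2.07 ± 0.35). The study's text describes its sorted p75+ cells as negative for EGFR and names fibroblasts as cells that express it. Which cells gave the Egfr RNA of the SC arrays was not tested. Of 19 neurotrophic factors and receptors 10 were higher in SCs and none in macrophages, among them the ligands Lif (2.34 ± 0.42) and Gdnf (2.16 ± 0.28) and the receptors Cntfr (2.33) and Gfra2 (2.19). Of 27 TGF-beta, BMP and activin genes 12 were higher in SCs, such as Tgfb2 (2.19 ± 0.19) and Tgfbr3 (2.65 ± 0.45), and 2 in macrophages, Tgfb1 (-1.53 ± 0.14) and Tgfbr1 (-1.36 ± 0.21). Tgfb2 was at 6.77, 5.85 and 6.38 in SCs and 4.11 to 4.17 in macrophages, and Tgfb1 at 6.59, 7.10 and 6.81 in SCs and 8.26 to 8.46 in macrophages. Neither of these ligands overlapped between the cell types. Of 32 VEGF, PDGF, FGF and IGF genes 10 were higher in SCs, among them Fgfr1 (2.49 ± 0.32), and 2 in macrophages, Igf1 (-2.0 ± 0.18) and Nrp2 (-1.54 ± 0.16). The batch term removed the calls of Hbegf (1.86, adjusted p = 0.058), Lif (2.0, adjusted p = 0.084), Gfra2 (2.0, adjusted p = 0.06) and Cntfr (1.66, adjusted p = 0.14).

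Called genes of developmental pathways were also mostly higher in SCs. Of 35 Wnt and hedgehog genes 14 were higher in SCs and none in macrophages, with the Wnt inhibitor Sfrp5 (3.04 ± 0.49), the receptors Fzd3 (3.01 ± 0.30) and Fzd8 (2.06), the hedgehog receptor Ptch1 (2.20 ± 0.31) and the ligand Dhh (1.84), whose promoter drives the Cre. Of 17 Notch genes 6 were higher in SCs and 3 in macrophages. The targets Hes1 (2.66 ± 0.18), Hey2 (2.61) and Hey1 (2.29) were higher in SCs, against the ligand Jag1 (-1.58 ± 0.17), the receptor Notch2 (-1.23) and the glycosyltransferase Lfng (-1.45) in macrophages. Of 50 axon guidance genes 19 were higher in SCs, among them Sema3b (2.68 ± 0.37) and Efnb2 (2.31 ± 0.33), and 4 in macrophages, Sema4d (-2.24 ± 0.16), Sema4a (-1.68), Plxnc1 (-1.55) and Nrp2. Of 17 cholesterol synthesis enzymes 12 were higher in SCs and none in macrophages (median 1.55, 7 with the batch term), with Hmgcs1 at 9.97, 9.04 and 9.36 in SCs and 6.27 to 7.96 in macrophages (2.20 ± 0.35) and Sqle at 2.13 ± 0.27. None of 27 cell cycle genes and none of 13 ribosomal protein genes was called, with list medians of 0.19 and 0.02, and Mki67 differed by 0.20. With the batch term Sfrp5 (2.43, adjusted p = 0.059) and Dhh (1.21, adjusted p = 0.25) were not called.

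Ligands and receptors were set beside each other for 79 of 90 listed pairs. In 7 pairs the ligand was higher in SCs and the receptor in macrophages, in 4 the ligand in macrophages and the receptor in SCs, in 10 both were higher in SCs and in 7 both in macrophages, and in the other pairs at least 1 member was not called. Csf1, the growth factor of macrophages (chr3:107741048-107760469), was at 8.58, 8.17 and 7.90 in SCs and at 5.90, 5.70, 5.39, 6.95 and 6.54 in macrophages (2.12 ± 0.33, adjusted p = 8.9e-04). Il34, the other ligand of Csf1r, was at 7.03, 7.20 and 6.73 in SCs and 3.70 to 5.05 in macrophages (2.33 ± 0.29). Neither ligand overlapped between the cell types, and nor did Csf1r, which stood the other way round. Cd200 (2.61 ± 0.54) and its inhibitory receptor Cd200r1 (-3.90 ± 0.23) were placed likewise, as were Cxcl12 (1.94 ± 0.48) with Cxcr4 (-1.34), Sema3b and Sema3c (2.43 ± 0.24) with Nrp2, and Sema7a (2.26) with Plxnc1. Without SC 9 the calls of Cxcl12 (1.62, adjusted p = 0.064) and Sema7a (1.98, adjusted p = 0.082) were lost. In the other direction stood Il1b and Il1a with Il1r1, Psap (-1.08) with Gpr37l1 (2.62), and oncostatin M with its receptor. Osm was at 4.4 to 4.50 in SCs and 6.58 to 7.55 in macrophages (-2.82), and Osmr at 8.61 to 9.14 in SCs and 3.60 to 6.88 in macrophages (3.38). With the batch term calls were lost for Cd200 (2.56, adjusted p = 0.092), Cxcl12 (1.60, adjusted p = 0.24), Cxcr4 (-1.29, adjusted p = 0.10), Sema7a (2.07, adjusted p = 0.23), Gpr37l1 (2.16, adjusted p = 0.08) and Osmr (3.24, adjusted p = 0.07). The pairs describe RNA levels of sorted cells, and binding was not measured.

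**Figure D4:**
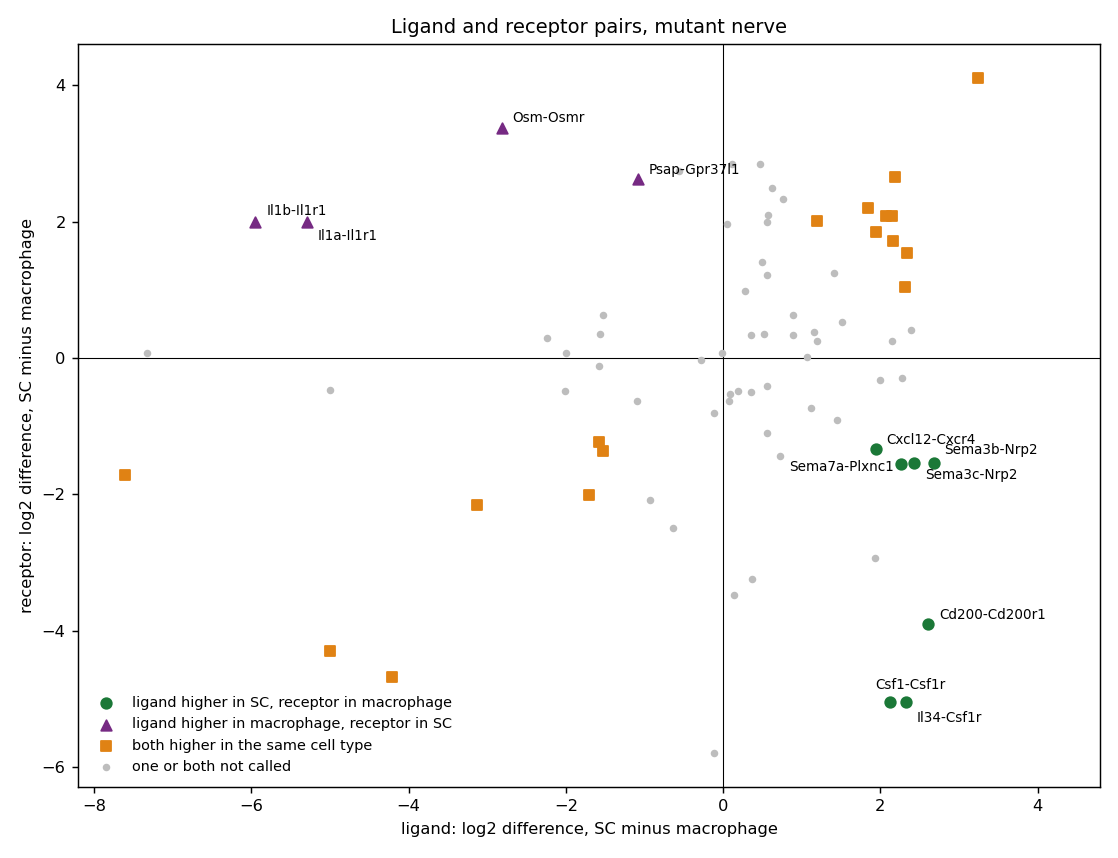
Log2 difference of the ligand (x axis) and of its receptor (y axis), SC minus macrophage, for 79 pairs, with 1 point per pair. The 7 pairs with the ligand higher in SCs and the receptor in macrophages lie at lower right and the 4 with the opposite arrangement at upper left, both named.

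Whether the contrast differs in the absence of the Nf1 deletion was asked with wild-type nerve, over 14 arrays. The difference between the mutant and the wild-type contrast passed an adjusted p of 0.05 for no gene (0%) in limma, with 2159 genes (9.73%) at an unadjusted p under 0.05 and a smallest adjusted p of 0.376. The median SE of that difference was 0.27. Of the SC-higher genes 1564 (99.6%) had the same sign in wild type, where 44.3% of all genes were positive, at a median of 1.83, and of the macrophage-higher genes 1246 (99.5%), where 55.7% of all genes were negative, at -1.47. Csf1 had a contrast of 2.12 in mutant and 2.47 in wild-type nerve, Csf1r -5.04 and -4.96, Ptprz1 4.11 and 4.96, and Egr1 2.79 and 2.95. Nf1 itself had 0.06 in mutant and 0.71 in wild-type nerve (difference -0.65 ± 0.22, adjusted p = 0.42). Cnn1 had 3.74 in mutant and 1.62 in wild-type nerve (2.12 ± 0.58, adjusted p = 0.38). The pericyte and smooth muscle list, to which Cnn1 belongs, had a median of 2.42 in mutant nerve and 1.56 in wild-type nerve. All 5 mutant macrophage arrays are in label batch 1 and all 3 wild-type ones in batch 2, so that for macrophages batch and genotype cannot be told apart.

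In neurofibroma at 7 months the contrast differed from that in 1-month mutant nerve for 349 genes (1.57%), higher for 177 (0.798%) and lower for 172 (0.775%), and with the batch as a term for 67 and 156. Of the genes called in mutant nerve 7.47% were among them. Age, tumour and array set changed together between these groups and cannot be told apart, and only an additive difference between the sets cancels in such a contrast. Levels are therefore given within each set, SCs beside macrophages. The contrast of Retnla differed most. Within neurofibroma Retnla was at 4.41, 4.54 and 4.6 in SCs and at 4.07, 5.62, 6.15 and 6.85 in macrophages, which overlapped, and within mutant nerve at 2.98 to 3.39 in SCs and 9.10 to 10.64 in macrophages, so that its contrast was -1.16 in neurofibroma and -6.63 in mutant nerve (difference 5.47 ± 0.66, adjusted p = 8.6e-04). Fcgr4, an activating Fc receptor, differed the other way. It was at 2.91 to 3.09 in SCs and 8.76 to 9.88 in macrophages of neurofibroma, and at 2.65 to 3.16 in SCs and 4.88 to 7.62 in macrophages of mutant nerve (contrast -6.50 and -2.78, difference -3.72 ± 0.66). The lectin-like Klrb1b had a contrast of -4.90 in neurofibroma and -1.35 in mutant nerve (difference -3.55 ± 0.60). In mutant nerve its call was lost with the batch term (-1.12, adjusted p = 0.39) and on leaving out any of the 3 SCs or macrophage 12 or 14 (adjusted p 0.085 to 0.16). Inhba, the activin A subunit, was at 9.39 to 9.95 in SCs and 3.96 to 5.15 in macrophages of neurofibroma, and at 6.66 to 7.31 in SCs and 4.07 to 6.64 in macrophages of mutant nerve (contrast 4.87 and 1.41, difference 3.46 ± 0.67). The contrast of Cnn1 was 0.43 in neurofibroma and 3.74 in mutant nerve (-3.32 ± 0.49), with 2.95 to 3.23 in SCs and 2.42 to 2.95 in macrophages of neurofibroma. Lyz2 was at 7.14 to 7.62 in SCs and 10.54 to 10.60 in macrophages of neurofibroma, and its contrast was -3.11 there and -6.24 in mutant nerve. Rnu3a (3.69), Ifi202b (3.43), Gcg (3.40) and Vmn1r181 (3.36) complete the 10 largest. The call of Ifi202b in mutant nerve (-1.22) was lost without SC 10 (-0.78, adjusted p = 0.084) or macrophage 11 (-1.19, adjusted p = 0.050). With the batch as a term the differences of Fcgr4 (-3.45, adjusted p = 0.077) and Inhba (3.54, adjusted p = 0.078) were not called.

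Lists had from none to 8 members called in that comparison among those given here, and differences between list medians were not tested. The resident macrophage genes had 8 of 21 members called, with a list median of -1.12 in neurofibroma and -2.94 in mutant nerve. None of 18 endothelial genes was called, at medians of 2.27 in neurofibroma and 1.20 in mutant nerve, 4 of 14 pericyte and smooth muscle genes were (0.55 and 2.42), and 1 of 17 cholesterol synthesis genes was (0.40 and 1.55). Of the SC markers 3 of 27 were called (2.53 and 2.00), and of the macrophage markers 5 of 29 (-4.84 and -4.96). Csf1 had a contrast of 4.18 in neurofibroma and 2.12 in mutant nerve (difference 2.06, adjusted p = 0.032), and S100b 4.89 and 2.34 (2.55, adjusted p = 0.0091). Both fell outside the threshold with the batch term (Csf1 2.38 with adjusted p = 0.077, S100b 2.56 with adjusted p = 0.056), and that of Csf1 also without mutant SC 9 or 10, mutant macrophage 15, any of 3 neurofibroma macrophages or any of 2 neurofibroma SCs (adjusted p 0.051 to 0.086). Il34, at 3.62 and 2.33, did not pass the test (adjusted p = 0.14).

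**Figure D5:**
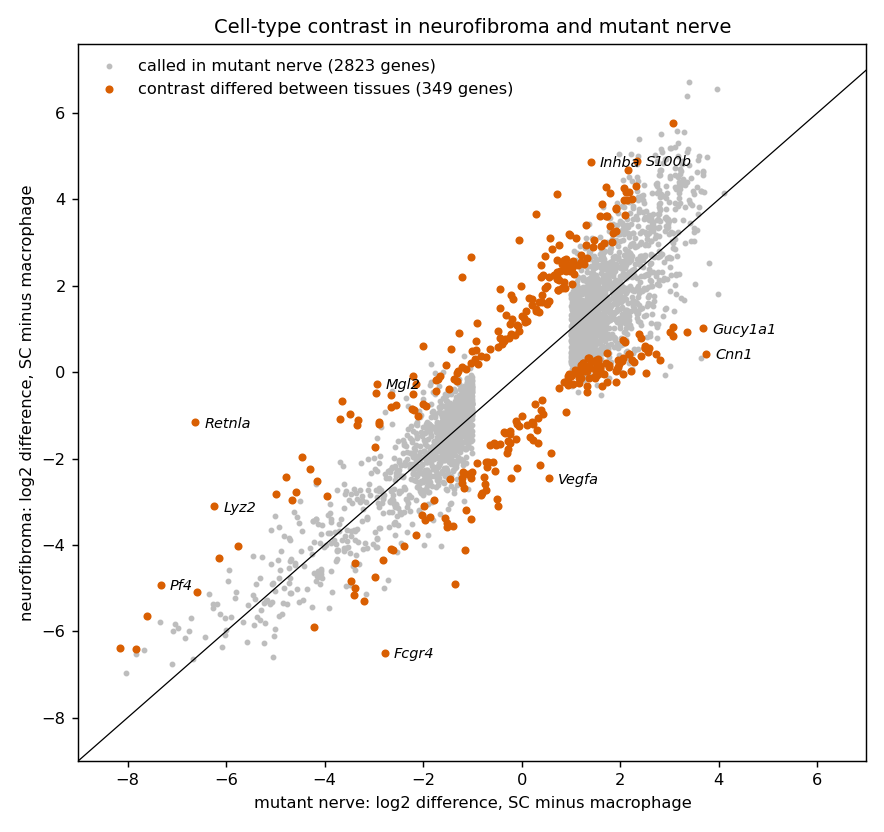
Log2 difference, SC minus macrophage, in neurofibroma (y axis) and in 1-month mutant nerve (x axis) for genes called in mutant nerve (grey, 2823 genes) and for genes whose contrast differed between the tissues (orange, 349 genes), with the line of equal contrasts. Retnla lies furthest above the line, at -1.16 in neurofibroma and -6.63 in mutant nerve.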

How the data were processed

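RNA of sorted SCs and macrophages was hybridised by the authors to Affymetrix Mouse Gene 2.0 ST arrays, and the deposited values are log2 intensities, which per the labels were summarised by RMA in Affymetrix Expression Console 1.3.1.187 with annotation on mm10. Background correction and quantile normalization over a set place all its arrays on 1 scale, so levels of the 1-month and 7-month sets are given within each set, and only their contrasts were tested against each other. Of 41345 transcript clusters, 23521 carried 1 gene, 1820 several and 16004 none. The cluster with the highest mean over the 8 arrays was kept for each of 22180 genes, so genes found only on shared clusters were not analysed here. limma 3.58.1 (R 4.3.3) was fitted with lmFit and eBayes (6 residual degrees of freedom), with p-values adjusted by Benjamini-Hochberg over all genes, after being tested on simulated data. The difference of the contrast was fitted over 14 arrays with wild-type nerve and 15 with neurofibroma. Gene symbols followed RefSeq (21994 genes matched by identifier).

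Named are Nf1, the sort genes, the 10 largest called differences without overlap in each direction, up to 4 called members of each list in each direction, list members not called or called against their list, members of the ligand-receptor pairs and the 10 largest called differences between contrasts. Not every gene the rule admits is printed, and a few others (such as Cd3d, Sox10, Ccl4 and Dusp6) were chosen after their values were seen. The members, lists and pairs were chosen with earlier results of these data known. Alternatives covered the batch, the arrays in the fit, low values, clusters, normalization, variance model, thresholds, and single arrays left out. Leaving out macrophages 14 and 15 together was added after seeing the data.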

Additional observations from a re-analysis of the deposited data

Results flagged for a closer look

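In the 5 macrophage arrays, 12 of 214 named genes had 1 array set apart from the other 4 by a gap beyond Dixon's 95% limit, where chance gives about 1 in 20. Macrophage 13 was low in 6 of them, in Ace (3.96), Cybb (9.44), H2-K1 (8.28), Hey1 (4.35), Il34 (3.70) and Itgb1 (9.08). Macrophage 15 was high in Cd86 (9.71), Fcgr4 (7.62) and P2ry6 (9.18). Macrophage 11 was low in Ccl2 (11.31) and high in Ctss (10.96), and macrophage 14 was high in Plekhb1 (5.84).

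The SC minus macrophage contrast differed between neurofibroma and mutant nerve, by the interaction term of limma, for 34 named genes. The values are neurofibroma minus mutant nerve on the log2 scale. Among genes called higher in macrophages in mutant nerve the contrast was less negative or more positive in neurofibroma for Retnla (5.47), Lyz2 (3.13), Chil3 (2.97), Pf4 (2.40), Ifnb1 (1.96), Tfec (1.81), Ppbp (1.76), Il1rn (1.74), Nrp2 (1.71), C1qb (1.5), Ms4a7 (1.41) and Casp1 (1.24). It was more negative for Fcgr4 (-3.72), Klrb1b (-3.55), Adam8 (-1.76), Itgam (-1.68) and Ccr2 (-1.38). Among genes whose contrast was positive in both tissues it was larger in neurofibroma for Inhba (3.46), S100b (2.55), Csf1 (2.06), Mal (1.99), Efnb2 (1.99), Btc (1.85), Egr2 (1.67), Ccl2 (1.57) and Dock1 (1.18), and smaller for Cnn1 (-3.32), Gucy1a1 (-2.67), Id3 (-1.53) and Ptgis (-1.23). Rnu3a (3.69), Ifi202b (3.43), Gcg (3.40) and Vmn1r181 (3.36) also differed. Of these 34 differences 19 missed the threshold with the batch as a term. With 1 of the 15 arrays left out, the threshold was missed for Dock1, Ms4a7 and Tfec on leaving out any of 13 arrays, for Btc and Mal any of 10, for Chil3 and Egr2 any of 9, for Csf1 any of 8 and for Efnb2 any of 4, and for Id3 and Ifnb1 on leaving out 1 neurofibroma SC array each (adjusted p 0.052 and 0.058).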

How the results depend on the processing

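Each called difference named here kept its direction under the alternatives run for named genes, and 8 named genes that were not called, among them Ccl2 and Tlr3, changed sign in at least 1 setting. The counts of SC-higher and macrophage-higher genes moved beyond 1.5 times only with the threshold, to 497 and 437 at a fold above 4 and 2783 and 2481 with no fold limit. Leaving out 1 array gave 1497 to 1641 and 1136 to 1345. Centring each array on its median moved the median of all genes to -0.130, and 1319 and 1502 genes were then called, a share of 46.8% higher in SCs against 55.6%. With wild-type nerve no gene was called in any setting. With neurofibroma 67 and 156 genes were called higher and lower with the batch as a term, and 120 to 246 and 117 to 209 with 1 array left out. No paired analysis was possible for the main contrast because its groups share no replicate numbers. With a replicate block for the 2 replicate numbers that both cell types share at 7 months (estimated correlation 0.0967), 186 and 185 genes were called, against 177 and 172 without it. The labels do not say whether such a number stands for 1 mouse. On 1 strand the PU.1-type motif was in 8.22%, 11.6%, 7.77% and 8.03% of SC-higher, macrophage-higher, uncalled and all promoters, and the SOX-type in 4.24%, 3.08%, 5.17% and 4.99%, by construction of the search. The 3 SC arrays limit the precision.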
